A study of Saccharomyces cerevisiae with 16 samples.

Results

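The genes described here encode the proteins of the small subunit of the cytosolic ribosome of budding yeast. They are the nuclear protein-coding genes of the R64 assembly whose symbol is RPS followed by a number and an optional A or B, 56 of 6002 nuclear protein-coding genes. Of the 56, 48 form 24 pairs of an A and a B copy and 8 are single-copy genes. The series measured histone H3 trimethylated at lysine 4 (H3K4me3) by CUT&RUN, in which an antibody guides a nuclease that releases the chromatin around it, in the haploid strain BY4741. All strains carried synthetic DNA, either HPRT1, built after a human locus, or HPRT1R, the same sequence reversed. There were 4 groups of 2 libraries: HPRT1R on a yeast artificial chromosome (YAC), HPRT1 on a YAC, HPRT1R integrated on chromosome XI and HPRT1 integrated on chromosome XI. YAC strains were grown in SC-Leu and integrated strains in YPD, so configuration and medium cannot be told apart, and no strain without the synthetic DNA was among them. All cultures grew at 30 °C for 6 h, between optical densities of 0.1 and about 0.6, and 0.5 µg of antibody was used.

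Ribosomal protein genes are among the most heavily transcribed genes of growing yeast, and their output follows nutrients through the TOR pathway. Most of their promoters are bound by Rap1 with the activators Fhl1, Ifh1 and Sfp1, and many by the high mobility group protein Hmo1. H3K4me3 is laid down by the Set1 complex, which travels with RNA polymerase II early in transcription, and the mark usually covers the nucleosomes just downstream of the start. A genome duplication left many of these genes as A and B copies that encode nearly the same protein. Many also carry an intron close to the start codon, which is rare among yeast genes.

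The data were 1 list of called H3K4me3 peaks per library, with 3463 to 4049 peaks. A peak's fold is the authors' own value, the pileup of reads at the summit over the pileup the caller expected. The expected pileup was solved from fold and p-value. Its lower decile over the peaks on native chromosomes was 76.2 to 98.9 reads per library, and most peaks had higher values. At the members' summits the observed pileup was 134 to 457 reads. HPRT1R YAC replicate 1 had the fewest peaks and its file was named by a different pattern. The cell line entry of HPRT1 YAC replicate 2 gives HPRT1R, against HPRT1 in its title, source and genotype. Calls that changed with both of these libraries left out together are given below. Nothing in the labels says that replicates were separate cultures, so p-values measure the spread between these libraries, which may be technical. The 8 IgG controls were not used here, and the background at these genes was therefore not measured.

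Nearly all small-subunit genes had a peak that reached the 5′ end in every library. A gene was called marked when a peak touched the stretch between 200 bp before and 500 bp after its annotated start, which is the start of the coding sequence. By this rule 54 of the 56 members (96.4%) were marked in all 8 libraries, against 66.5% of all 6002 genes and 74 of 76 genes of the large subunit (97.4%). The rule does not ask where the summit lies. With the summit itself in the 500 bp after the start, the shares were 7.14% of the members and 16.3% of all genes. The members' median peak width was also above that of all marked genes, except in HPRT1 YAC replicate 1 (696 and 715 bp). The part of width in these shares was not tested. The 2 exceptions were RPS9A, which encodes a body protein at the mRNA entry side, and RPS30A, which encodes another body protein. Both were marked in 7 libraries and lacked a peak in HPRT1 YAC replicate 1. There the median width of the members' peaks was 696 bp, against 1140 to 1662 bp in the other 7 libraries, and the part of peak width in these absences was not tested.

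The peaks counted for these 2 genes had their summits well inside or beyond the gene. At RPS9A (chromosome XVI, 404950 to 406044, plus strand) the summit was 1603 ± 614 bp downstream of the start (SD, n = 7), and at RPS30A (chromosome XII, 712537 to 713158, minus strand) 1071 ± 226 bp downstream (SD, n = 7). It lay in the next gene or the gap before it in 6 of 7 libraries for each, and within the gene in the other, for RPS9A at 366 bp in HPRT1R YAC replicate 1.

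Fold values of the members were above the middle of each library's list. The median fold over the members was 2.61 ± 0.201 (SD, n = 8 libraries), beside 2.67 ± 0.188 for large-subunit genes and 2.34 ± 0.182 for all marked genes. Among the 54 members marked throughout, 38 had a mean fold above the median of the 3991 genes marked throughout, which was 2.44. At the top of the lists the shares were closer: 9 of 54 (16.7%) had a mean percentile above 90 within their lists, beside 15.1% of the 3991 genes. The members' peaks were wide, with a median of 1334 ± 323 bp, beside 1251 ± 180 bp for the large subunit and 848 ± 91.7 bp for all marked genes (SD, n = 8 libraries each).

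**Figure D1:**
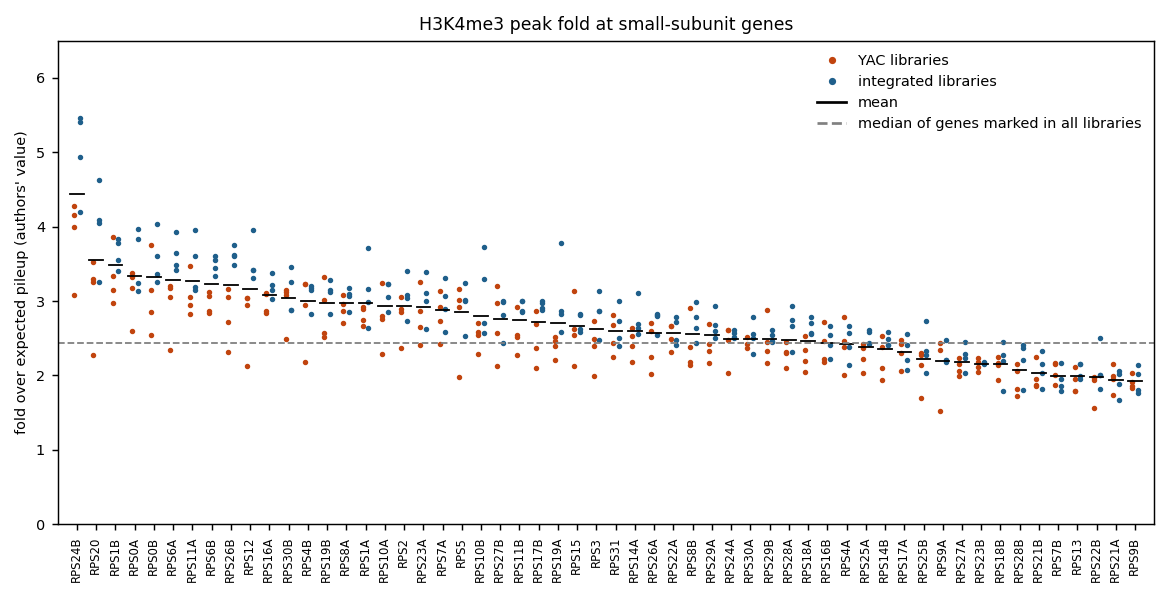
Fold over expected pileup (the authors' value, no unit) of the peak at each of the 56 small-subunit genes, ordered by mean. Each point is 1 library, with YAC libraries left and integrated libraries right within a gene, bars mark means and the dashed line marks the median of genes marked in all libraries; RPS24B stands highest at a mean of 4.44 and RPS9B lowest at 1.92.

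By role, the proteins of the head, the upper part of the subunit that holds the tRNA anticodon ends, and those of the body and platform below it had similar levels. The median of the mean folds was 2.61 over the 22 head genes and 2.67 over the 34 body or platform genes. It was 2.76 over the 8 single-copy genes, which ranged between 1.98 and 3.55, and 2.57 over the 48 A or B copies, which ranged between 1.92 and 4.44. The ranges of these classes overlapped.

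The 5 members of highest mean fold were 4 body or platform genes and 1 head gene. RPS24B, a copy of the gene for the body protein eS24, had folds of 3.07 and 4.28 in HPRT1R YAC, 3.995 and 4.15 in HPRT1 YAC, 4.199 and 4.94 in HPRT1R integrated and 5.46 and 5.41 in HPRT1 integrated libraries. Its mean was 4.44 ± 0.798 (SD, n = 8), with 306 to 457 reads at the summit, and it stood above percentile 98.8 of native peaks in every list. RPS20, a single-copy gene for a head protein, had folds between 2.27 and 4.62, with a median of 3.42. These are levels within separate lists, whose expected pileups differ, and no test between libraries was made on them.

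RPS1B, which encodes a platform protein, followed with folds between 2.97 and 3.86 and a median of 3.48. RPS0A and RPS0B encode a protein on the solvent side of the body that is needed for the late cleavage of the rRNA precursor. RPS0A had folds between 2.60 and 3.97, and RPS0B between 2.55 and 4.03. RPS20, RPS1B, RPS0A and RPS0B stood at mean percentiles between 93.4 and 96.0 of their lists.

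The lowest mean folds among members marked throughout belonged to RPS9B, RPS21A, RPS22B, RPS13 and RPS7B, all genes of body or platform proteins. RPS9B had folds between 1.77 and 2.14 and RPS21A, whose protein sits beside Rps0, between 1.67 and 2.16. RPS22B had folds between 1.56 and 2.50, RPS13, a single-copy gene, between 1.79 and 2.15, and RPS7B between 1.79 and 2.17. Their mean percentiles lay between 35.2 and 40.9, where the medians of all marked genes were 61.7 to 63.0. RPS9A had a mean percentile of 50.7, with folds between 1.52 and 2.48 in the 7 libraries that had its peak.

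Within each list the members' median percentile by fold was above that of all marked genes in 8 of 8 libraries. In the YAC libraries it was 77.8 and 78.9 (HPRT1R) and 78.2 and 79.8 (HPRT1), and in the integrated libraries 75.5 and 75.5 (HPRT1R) and 74.4 and 70.7 (HPRT1). The 4 YAC values all lay above the 4 integrated values. The large-subunit genes ran alongside, at 80.4 to 82.6 in YAC and 72.3 to 77.5 in integrated libraries, while all marked genes stayed between 61.7 and 63.0. Percentiles come from lists of different lengths, so this order describes the lists and is no test of a change at the genes.

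**Figure D2:**
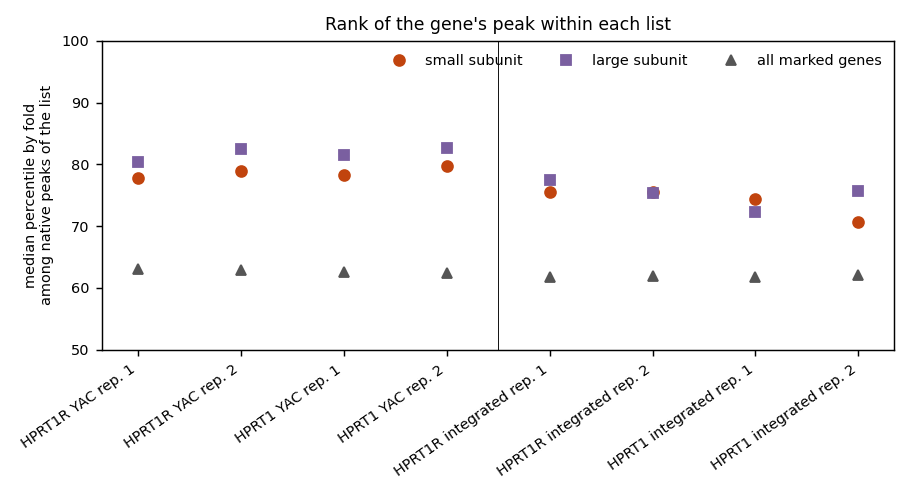
Median percentile by fold of small-subunit, large-subunit and all marked genes among the native peaks of each library's own list, YAC libraries left of the line and integrated libraries right. Small-subunit medians lay between 77.8 and 79.8 in YAC and between 70.7 and 75.5 in integrated libraries, and those of all marked genes between 61.7 and 63.0.

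At small-subunit genes the summit of the peak lay upstream of the start in a larger share of cases than over all genes, a description that was not tested. Where several peaks touched the window, the one of highest fold was used, and its summit was measured from the start in the direction of transcription, so that negative values are upstream. The median summit position was -110 ± 37.7 bp over the members, -23.3 ± 66.7 bp over large-subunit genes and 36.0 ± 22.8 bp over all marked genes (SD, n = 8 libraries each). In the YAC libraries the members' median was -55 and -166 bp (HPRT1R) and -138 and -88.5 bp (HPRT1), and in the integrated libraries -122 and -71.5 bp (HPRT1R) and -99.5 and -139 bp (HPRT1). It was upstream in 8 of 8 libraries and the configurations overlapped, while that of all marked genes was upstream in 1 library, HPRT1R YAC replicate 1, at -5 bp.

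Set against the annotation, 51.6 ± 3.23% of the members' summits lay between genes on the upstream side (SD, n = 8 libraries), beside 47.2 ± 4.95% for the large subunit and 24.5 ± 5.88% for all marked genes. The share within the gene itself was 34.4 ± 6.62% for the members, 45.7 ± 5.36% for the large subunit and 54.7 ± 6.45% for all marked genes. The band from 100 to 300 bp upstream alone held 35.9 ± 3.56% of the members' summits, 35.1 ± 3.82% of those of the large subunit and 12.4 ± 2.39% of those of all marked genes. In the 500 bp after the start, where most summits of yeast genes fell (53.6 ± 6.20%), there were 24.9 ± 6.08% of the members' summits. The ranges over libraries did not overlap between members and all marked genes in the upstream band, at 32.1 to 42.6% and 10.4 to 17.6%.

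**Figure D3:**
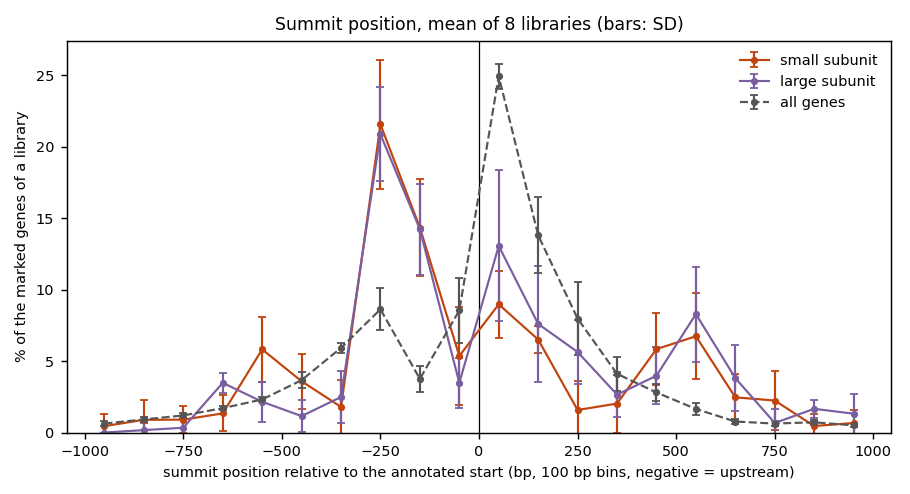
Share of summits (% of the marked genes of a library, mean of 8 libraries, bars SD) in 100 bp bins of position relative to the annotated start, negative being upstream, for small-subunit, large-subunit and all marked genes. Small- and large-subunit genes peak in the bins 100 to 300 bp upstream, and all genes in the 100 bp after the start.

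Counted gene by gene, 20 of the 54 members marked throughout (37.0%) had the summit upstream in all 8 libraries, beside 20.6% of all genes marked throughout and 17 of 74 genes of the large subunit (23.0%). The summit stayed 100 to 300 bp upstream in all 8 for 11 of 54 members (20.4%), beside 3.48% of all genes marked throughout and 10 of 74 of the large subunit (13.5%). These 11 were RPS0A, RPS0B, RPS6A, RPS7A, RPS15, RPS17A, RPS19B, RPS21B, RPS25A, RPS27B and RPS30B. The RPS30B summit lay in 8 of 8 libraries within FYV12, a divergent open reading frame that starts 78 bp upstream. The opposite pattern was a summit in the 500 bp after the start in all 8, found at 979 of all 6002 genes (16.3%). Both this share and that of the members are over genes marked throughout or not. They are therefore not on the scale of the upstream shares, which are over genes marked throughout. Among the members it was found at 4 of 56 (7.14%), namely RPS2, RPS12, RPS20 and RPS26B. Of these 4, RPS2 at the mRNA entry channel and the head proteins RPS12 and RPS20, are single-copy genes.

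The single-copy genes differed in this from the copies as a description: 1 of 8 had a mean summit upstream, RPS15, whose protein reaches the decoding centre, while 31 of 48 A or B copies did. The medians of the mean summit positions were 274 bp for the 8 and -118 bp for the 48. Among the 36 members known to have an intron, the median was -118 bp and 22 lay upstream, and among the 20 without one it was 37.9 bp and 10 lay upstream. Of the 34 members whose upstream neighbour points away from them (divergent), 22 had a mean summit upstream, and of the 22 with a neighbour in tandem, 10 did. These classes share members and were not tested against each other.

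How firmly the summit was placed differed between members. Its SD over libraries was at most 25 bp at 13 of 56 members (23.2%), beside 742 of 3991 genes marked throughout (18.6%). It was above 200 bp at 26 of 56 (46.4%), beside 1233 of 3991 (30.9%). The 26 include RPS9A and RPS30A, which were not marked throughout and so have no counterpart among the 3991. At RPS7A (chromosome XV, 505794 to 506767, plus strand) it lay between -271 and -251 bp in all libraries, and at RPS27B (chromosome VIII, 147871 to 148669, minus strand) between -221 and -200 bp. RPS7A encodes a body protein and RPS27B a zinc-binding platform protein.

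Members with a wide spread had summits that moved between separate places. RPS31, which encodes ubiquitin fused to a head protein, had summits at 2328 and 2352 bp in HPRT1R YAC, 295 and 300 bp in HPRT1 YAC, 299 and 280 bp in HPRT1R integrated and 170 and 2348 bp in HPRT1 integrated libraries. The 5 positions near the start lay in RPS31, and the 3 farther ones in a gene beyond it. Their mean of 1046 bp, the most downstream of the members marked throughout, describes no library. RPS14A, for a platform protein, had summits between 536 and 588 bp in 7 libraries and at 1764 bp in HPRT1R YAC replicate 1. RPS13 ranged between 26 and 1236 bp and RPS21A between 407 and 1146 bp.

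**Figure D4:**
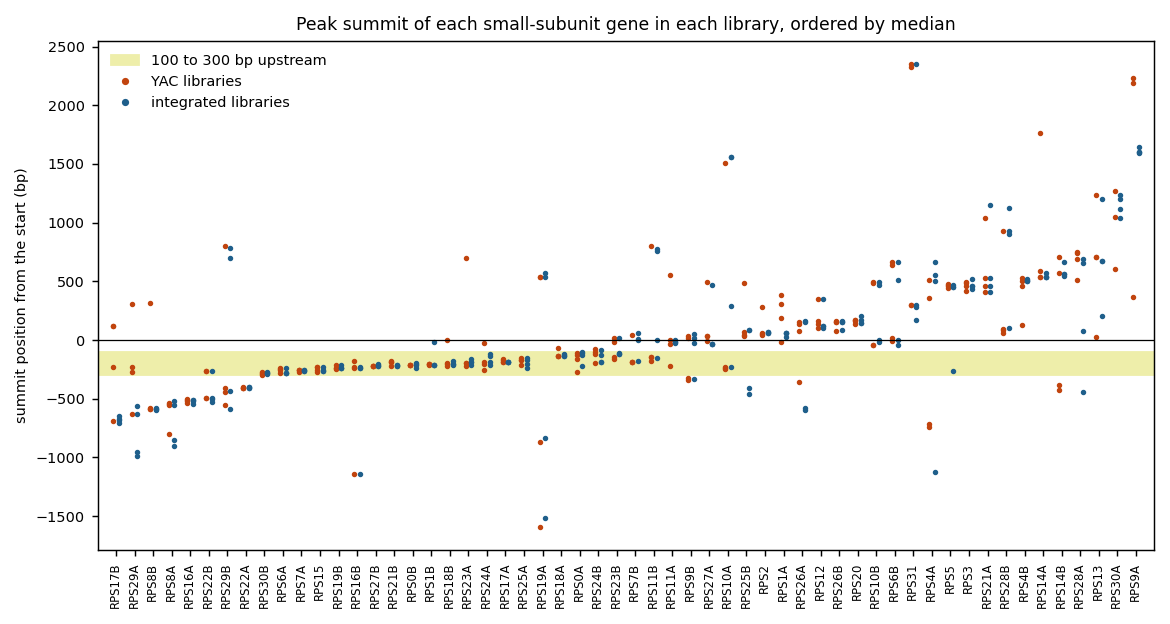
Summit position relative to the annotated start (bp, negative upstream) for each small-subunit gene, ordered by median, with 1 point per library, YAC libraries left and integrated libraries right within a gene; the band marks 100 to 300 bp upstream. Genes such as RPS7A and RPS27B hold 1 position in all libraries, while RPS31 alternates between places more than 1000 bp apart. RPS9A lies at 366 bp in HPRT1R YAC replicate 1 and between 1595 and 2228 bp in the other libraries with a peak.

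The most upstream mean summits were those of RPS8A, RPS16A, RPS29A and RPS8B. RPS8A and RPS8B encode a protein of the lower body; the RPS8A summit lay between -900 and -516 bp, and the RPS8B summit between -595 and -582 bp in 7 libraries and at 318 bp in HPRT1 YAC replicate 1. RPS29A, for a zinc-binding head protein, ranged between -984 and 308 bp. At RPS8A, RPS16A, RPS22A, RPS30A and RPS30B the start of another gene was nearer to the summit in every library with a peak. Over all members the own start was nearest for 75.6 ± 4.62% of the summits, beside 83.6 ± 3.10% for the large subunit and 72.3 ± 2.57% for all marked genes (SD, n = 8 libraries).

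Several peaks were shared with a gene of the large subunit. RPS16A, whose protein reaches the P-site tRNA, and RPL13B are divergent on chromosome XIII with 720 bp between them. They had 1 peak in 8 of 8 libraries, with a summit at -520 ± 14.2 bp relative to the RPS16A start and 201 ± 14.2 bp from the RPL13B start (SD, n = 8). RPS22A and RPL39 on chromosome X, with 630 bp between them, also had 1 peak in 8 of 8, with a summit at -405 ± 7.69 bp relative to RPS22A and 226 ± 7.69 bp from RPL39. In both arrangements the summit was nearer to the large-subunit gene in all libraries.

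RPS15 and RPP2A, the gene of an acidic stalk protein of the large subunit, are divergent on chromosome XV with 719 bp between them. Their shared summit was on the RPS15 side in 8 of 8 libraries, at -251 ± 15.6 bp relative to RPS15 and 469 ± 15.6 bp from RPP2A. RPS16B and RPL13A on chromosome IV had 1 peak in 6 of 8, with the summit nearer RPL13A in 2. Over all members 51.3 ± 12.5% of the peaks also reached the window of another gene, beside 51.5 ± 4.33% for all marked genes, so that a fold at a small-subunit gene is often the value of a region and not of that gene alone.

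The A and B copies of a protein often differed in fold within the same library, mostly by little. The log2 fold of the B copy was subtracted from that of the A copy in each list. The mean difference was tested by flipping signs over the 8 libraries (exact permutation test, two-sided). Adjustment was by Benjamini-Hochberg over the 57 A/B pairs of the genome marked throughout. Apart from COX5 and NHP6, all 57 are ribosomal protein pairs, and the 22 small-subunit pairs are among them. Shares over the 57 are therefore no background of yeast gene pairs in general. Of the 22 small-subunit pairs tested, 15 passed an adjusted p of 0.05, 9 with A higher and 6 with B higher, where 70.2% of all 57 pairs did. The difference had 1 direction in all 8 libraries in 13 of 22 pairs, beside 52.6% of the 57. A mean difference of at least 0.5 on the log2 scale was reached by 2 of 22, RPS24 and RPS7, beside 8.77% of the 57. The median size was 0.23 for the 22 pairs and 0.21 for the other 35. RPS9 and RPS30 were left out because the A copy was marked in 7 libraries. Of the 15 calls, RPS14 was the least firm: its mean difference was 0.14 ± 0.11 (SD, n = 8), with A higher in 7 of 8 libraries (exact permutation adjusted p = 0.0352). It was lost without any 1 library other than HPRT1 YAC replicate 1 and HPRT1R integrated replicate 1, at 0.11 to 0.14 (exact permutation adjusted p = 0.0652 to 0.0703, n = 7). Without both HPRT1 YAC replicate 2 and HPRT1R YAC replicate 1 it was 0.13 (exact permutation adjusted p = 0.124, n = 6).

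The largest difference was at RPS24, where the B copy was the higher. RPS24A had folds of 2.03 and 2.61 in HPRT1R YAC, 2.48 and 2.61 in HPRT1 YAC, 2.50 and 2.51 in HPRT1R integrated and 2.57 and 2.61 in HPRT1 integrated libraries, below the RPS24B values given above in each library and without overlap between the copies. A minus B was -0.82 ± 0.19 on the log2 scale (SD, n = 8; exact permutation adjusted p = 0.0148, higher in B in 8 of 8). The summits of both copies lay between genes upstream in 8 of 8 libraries, at -168 ± 71.3 bp for RPS24A (chromosome V, 306323 to 307196, plus strand) and -137 ± 46.5 bp for RPS24B (chromosome IX, 231553 to 232369, minus strand). The difference was -0.67 in YAC and -0.97 in integrated libraries, and this contrast did not pass adjustment (limma fitted over the 57 pairs, p = 0.00464, adjusted p = 0.265; an exact permutation test was not used for it).

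At RPS7 the A copy was the higher. RPS7A had folds of 2.42 and 3.13 in HPRT1R YAC, 2.93 and 2.73 in HPRT1 YAC, 2.89 and 3.31 in HPRT1R integrated and 3.06 and 2.59 in HPRT1 integrated libraries. RPS7B had 2.00 and 2.15, 1.87 and 2.17, 1.79 and 1.95, and 2.16 and 1.86 in the same groups. The copies did not overlap, and A minus B was 0.53 ± 0.17 (log2, SD, n = 8; exact permutation adjusted p = 0.0148, higher in A in 8 of 8).

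The next largest differences all had A higher in 8 of 8 libraries. RPS23, whose protein lies at the decoding centre, averaged 2.91 ± 0.340 for A and 2.15 ± 0.0539 for B, a log2 difference of 0.43 ± 0.15. RPS22 averaged 2.56 ± 0.164 for A and 1.97 ± 0.261 for B, and the copies differed by 0.39 ± 0.17. RPS16 averaged 3.08 ± 0.177 for A and 2.43 ± 0.208 for B, or 0.35 ± 0.09 on the log2 scale (SD, n = 8 each; exact permutation adjusted p = 0.0148 each). The A peaks of RPS22 and RPS16 are those shared with RPL39 and RPL13B, so these values describe promoters of a small- and a large-subunit gene together, and the RPL13 difference of -0.40 ± 0.12 rests largely on the same peaks.

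The smallest differences were at RPS0, RPS6 and RPS29. RPS0 had a mean of 0.01 ± 0.18 (exact permutation adjusted p = 0.914), with A higher in 4 of 8 libraries. RPS6, whose protein is phosphorylated downstream of TOR, had 0.01 ± 0.15 (exact permutation adjusted p = 0.740), and RPS29 had 0.03 ± 0.15 (exact permutation adjusted p = 0.622; log2, SD, n = 8 each). A p above the threshold does not show that these copies were marked alike. Without HPRT1 YAC replicate 2 and HPRT1R YAC replicate 1 the RPS29 difference was 0.10 and passed (exact permutation adjusted p = 0.0445, n = 6).

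**Figure D5:**
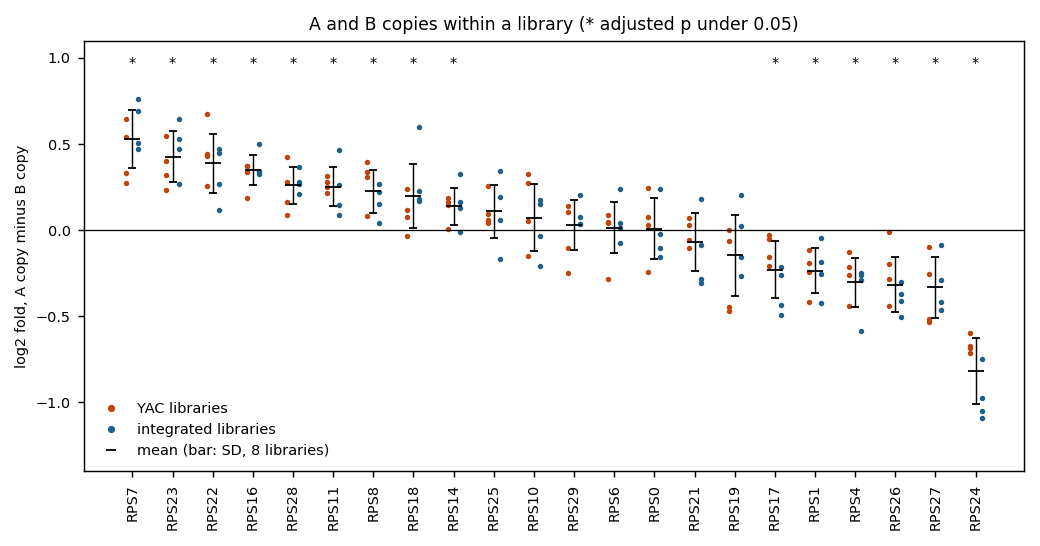
Difference in log2 fold, A copy minus B copy within a library, for the 22 tested small-subunit pairs, YAC libraries left and integrated libraries right within a pair. Bars are mean and SD of 8 libraries, and asterisks mark the 15 pairs with an adjusted p under 0.05; RPS7 lies highest at 0.53 and RPS24 lowest at -0.82.

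Coding sequences of the copies are nearly identical, and how reads that match both were placed is not given in the sources used here, so folds of peaks over coding sequence are uncertain within a pair. The part of such reads was not tested. At RPS24, RPS22 and RPS0 the summits of both copies lay between genes upstream in 8 of 8 libraries, outside the annotated coding sequence. The pair differences did not pass a test for a change with configuration in any of the 57 pairs (limma, 0 called, 2 of the 22 small-subunit pairs at an unadjusted p under 0.05), and 19 of 22 had the same sign in YAC and integrated libraries. For HPRT1R against HPRT1 strains 0 were called, with 1 of 22 at an unadjusted p under 0.05.

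The copies differed in where the summit lay in 5 of 22 pairs by the same exact permutation test on positions, where 35.1% of the 57 pairs did. RPS21 had the widest separation: the A summit lay at 623 ± 295 bp (chromosome XI, 551657 to 552242, plus strand) and the B summit at -204 ± 17.7 bp (chromosome X, 156550 to 157273, minus strand), a difference of 826 ± 294 bp. RPS6A lay at -264 ± 17.9 bp and RPS6B at 306 ± 339 bp, a difference of -570 ± 329 bp, although their folds could not be told apart. RPS27 differed by 333 ± 230 bp, RPS1 by 319 ± 169 bp and RPS7 by -181 ± 122 bp (SD, n = 8; exact permutation adjusted p = 0.0234 for each of the 5). In all 5 pairs the copy with the summit farther upstream (RPS1B, RPS6A, RPS7A, RPS21B and RPS27B) held it between genes in 8 of 8 libraries.

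Large mean differences at 3 other pairs did not pass, and their SDs were larger than the differences. RPS29 differed by -477 ± 918 bp (adjusted p = 0.263), RPS4 by -456 ± 772 bp (adjusted p = 0.329) and RPS14 by 351 ± 810 bp (SD, n = 8 each; exact permutation adjusted p = 0.561). RPS4A, whose protein binds the body, had summits between -1124 and 662 bp, while RPS4B stayed between 127 and 528 bp. With HPRT1 YAC replicate 2 and HPRT1R YAC replicate 1 left out, 0 of the 57 pairs passed. The 5 small-subunit pairs then still had the smallest p that 6 libraries allow, 0.0312, with unchanged signs. Of the 57 pairs 25 were at that value for position, which gave an adjusted p of 0.0713, whereas 40 were for fold, which gave 0.0445.

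Between configurations no member's summit was called as moved. limma was fitted to the summit positions of the 3991 genes marked throughout, with 4 group means. For YAC against integrated libraries it called 0 of the 54 members, where 1.4% of all genes were called. An unadjusted p under 0.05 was found at 2 members, beside 213 of the 3991 genes. RPS17B, a head protein gene, had summits at -227 and -692 bp in HPRT1R YAC, 120 and 121 bp in HPRT1 YAC, -674 and -644 bp in HPRT1R integrated and -707 and -683 bp in HPRT1 integrated libraries. The mean was -170 bp in YAC and -677 bp in integrated libraries, a difference of 508 ± 106 bp (SE; limma adjusted p = 0.228), and 1 YAC library fell among the integrated ones. RPS1A averaged 218 bp in YAC and 53.5 bp in integrated libraries (difference 164 ± 52.1 bp, SE; limma adjusted p = 0.676).

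For HPRT1R against HPRT1 strains 0 of 54 members were called, where 1.23% of all genes were. Beside 202 of the 3991 genes, 1 member had an unadjusted p under 0.05. It was RPS29B, with summits at -552 and 804 bp in HPRT1R YAC and 788 and 700 bp in HPRT1R integrated libraries, against -442 and -409 bp in HPRT1 YAC and -591 and -434 bp in HPRT1 integrated libraries. The difference was 904 ± 310 bp (SE; limma adjusted p = 0.769), and HPRT1R YAC replicate 1 lay among the HPRT1 libraries. These zeros depended on the libraries. Without HPRT1R YAC replicate 2, 5 members were called for configuration (RPS4B, RPS14A, RPS17B, RPS18B and RPS29B) and 6 for sequence (the same with RPS1A), where 9.74% and 9.44% of all genes tested were called. The count was 3 for each contrast without HPRT1R YAC replicate 1, where 2.93% and 3.07% of all genes were called, and 2 for each without HPRT1 YAC replicate 1, where 2.69% and 2.71% were. It was 1 for each without HPRT1 YAC replicate 2 or either HPRT1 integrated library, where 2.02 to 3.5% of all genes were called. Without both HPRT1 YAC replicate 2 and HPRT1R YAC replicate 1, 5 were called for configuration (RPS1A, RPS8B, RPS11A, RPS17B and RPS26A) and 5 for sequence (RPS29B in place of RPS1A), where 6.09% and 6.12% of all genes were called.

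Of 9 regulators of ribosomal protein genes, 5 were themselves marked in all 8 libraries. TOR1, a kinase of the TOR pathway, had a mean fold of 3.57 ± 0.500, HMO1 3.24 ± 0.451, RAP1 2.86 ± 0.351, IFH1 2.53 ± 1.27 and ABF1, a general regulatory factor, 2.45 ± 0.316 (SD, n = 8 each). SFP1 was marked in 2 libraries, FHL1 and the kinase gene SCH9 in 1 each, and CRF1, for a corepressor, in 0. All 12 listed assembly factors of the small subunit were marked in all 8, where 66.5% of all genes were. Their mean folds ran between 3.16 ± 0.385 for NOB1, the nuclease of the last rRNA cleavage, and 1.63 ± 0.0904 for DIM1, an rRNA methyltransferase. Marked means here only that a peak touched the window. The mean summit lay outside the window at TOR1 (-317 ± 21.9 bp) and NOB1 (-328 ± 19.5 bp, SD, n = 8 each). It also lay outside at PNO1, HRR25, RIO1, TSR1 and FAP7, so these folds may describe a region and not the gene alone.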

How the data were processed

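H3K4me3 CUT&RUN was measured in 8 libraries in 4 groups, taken from the sample titles (these say ChIP, while the protocols describe CUT&RUN). The submitters' processing notes name MACS2 2.1.0, Bowtie2 2.2.9, SAMtools 1.9, bcl2fastq 2.20 and deepTools 3.5.0, and the build sacCer3. Caller settings, mapping quality and the use of IgG as control are unknown (not given in the sources used here). Deposited per peak were the summit position, a score, the ratio of observed to expected pileup (fold), and p-values and q-values on the −log10 scale. These values were the authors' and were used within 1 list only, while positions were compared between lists.

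Starts were read from RefSeq's R64 gene table, with strand read from systematic names. Since 96.4% of gene spans are a multiple of 3 bp, starts are those of coding sequence. A gene was marked when a peak overlapped its window by at least 1 bp, and the peak of highest fold was used. Summit pileups were solved from fold and p-value, matched within 0.001 in −log10 p for at least 99.3% of peaks and left out at 0.01 or more. Pairs were compared by exact two-sided sign-flip permutation tests over 8 libraries (smallest p 0.00781), adjusted over the 57 of 61 A/B pairs marked throughout. Summit contrasts used limma 3.58.1 in R 4.3.3 over 3991 genes. Other steps used Python 3.11.15, SciPy 1.17.1, numpy 2.4.6 and pandas 2.3.3, tested on simulated data. Libraries were not paired by replicate number in the main fits.

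The members and gene lists were chosen with earlier results of these data known; the list of intron-bearing members is textbook knowledge, added later. Named were the members not marked throughout, the 5 of highest and lowest mean fold, the 4 of most upstream and downstream mean summit, the 5 pairs of largest and 3 of smallest fold difference, the 5 of largest summit difference, and the members called between groups, else those of lowest p. RPS2, RPS12, RPS26B, RPS15, RPS27B and other members given by name beyond these were chosen after their values were seen, as were the neighbours of the large subunit. No sequences are printed.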

Additional observations from a re-analysis of the deposited data

Results flagged for a closer look

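Of 30 sets of 8 library values checked, 4 held a library far from the others by Dixon's 95% criterion. It flags about 1 set in 20 by chance where values are normally spread. That rate does not hold for tied counts or for summits that move between separate places. HPRT1 YAC replicate 1 had 54 marked members, against 56 in each of the other 7 libraries, a tie beside which any other count would be flagged. RPS22B had a fold of 2.503 in HPRT1 integrated replicate 1, against 1.56 to 2.01 in the others. The RPS8B summit lay at 318 bp in HPRT1 YAC replicate 1, against -595 to -582 bp in the others. The RPS14A summit lay at 1764 bp in HPRT1R YAC replicate 1, against 536 to 588 bp in the others.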

How the results depend on the processing

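The count of members marked in all 8 libraries was 50 to 56 under stricter q-values, a 100 bp overlap, equal numbers of peaks or each library left out (56 without HPRT1 YAC replicate 1), and 4 when the summit itself had to lie in the 500 bp after the start, a rule that by construction drops upstream summits. Small-subunit pairs differing in fold numbered 14 to 16 under every alternative run, with 0 reversed, and 12 of the 15 were kept on log2 of −log10 q. RPS27 was lost with the nearest summit, and RPS14 without any of 6 single libraries. Pairs differing in summit position numbered 5 to 7, and 0 without both HPRT1 YAC replicate 2 and HPRT1R YAC replicate 1, where 25 of 57 pairs shared the smallest possible p of 0.0312. RPS18 was gained for position without HPRT1R YAC replicate 1 (78.9 bp, exact permutation adjusted p = 0.0405). RPS23 was gained without HPRT1 YAC replicate 2 (-106 bp, exact permutation adjusted p = 0.0424). Members called for a summit difference numbered 1 with the nearest summit (RPS11B) for YAC against integrated and 1 for HPRT1R against HPRT1, 5 and 5 without both libraries (253 and 254 of all 4153 genes), and 0 to 5 and 0 to 6 with each library left out (80 to 390 and 75 to 378 of all genes); the cause was not tested. Deviations of same-numbered libraries correlated by -0.0698 to 0.116 in summit position and by -0.18 to 0.122 in log2 fold. Libraries were not paired by number in the main fits. With a replicate block, 0 members were called in either contrast and 44 and 31 of all genes, beside 56 and 49 without it. With the crossed replicate block, in which the numbers of the HPRT1R YAC libraries were swapped, 0 members and 50 and 32 genes were called. With only genes whose summit lay in the window, 3 and 0 of 1701 were called. Peak lists give no depth where no peak was called, which limits what absence of a peak shows.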
